A study of Mus musculus with 18 samples.

Results

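The BCL2 family of apoptosis regulators was followed across bone marrow progenitors of Trim33 wild-type and knockout mice, with Bcl2l11 set against the other pro- and anti-apoptotic members. The members were the entries of each expression table carrying the symbol Bcl2l11, Bbc3, Pmaip1, Bid, Bmf, Bax, Bak1, Bcl2, Bcl2l1 or Mcl1. All 10 were found among the 19710 genes listed for MPPs, the 19710 listed for CD115- CDPs and the 18378 listed for CLPs, and all 10 passed the filter on low values in each population. RNA-seq was made from 18 libraries, 3 WT and 3 KO in each of 3 sorted populations. WT mice were Trim33 fl/fl and KO mice were Trim33 fl/fl Cre-ERT2, both C57BL/6, 6 to 8 weeks old and given tamoxifen at 2 mg on 5 days, with marrow taken 7 days later. The Cre was not restricted to blood cells, so the deletion was systemic. Multipotent progenitors (MPPs) were sorted as Lin- Sca-1+ CD117+ CD34+ FLT3+ cells, CD115- common dendritic cell progenitors (CD115- CDPs) as Lin- CD11c- FLT3+ CD117int CD115- CD127- cells, and common lymphoid progenitors (CLPs) as Lin- CD11c- Sca-1+ CD117+ CD127+ FLT3+ cells. The 3 libraries of a group were described as biological repeats, and whether each came from 1 mouse or a pool was not given in the sources used here.

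BCL2 family proteins decide whether the outer membrane of mitochondria is opened, the step that releases cytochrome c and starts the caspase cascade of intrinsic apoptosis. BAX and BAK form the pores, BCL2, BCL-XL and MCL1 hold them in check, and the BH3-only proteins BIM, PUMA, NOXA, BID and BMF tip the balance by binding the anti-apoptotic proteins or the pore formers. In blood progenitors BIM, the product of Bcl2l11, is known as the BH3-only protein that answers to loss of cytokine signals, while MCL1 is needed for the survival of stem and progenitor cells and BCL2 for that of lymphoid cells. Expression was measured as FPKM, the number of sequenced fragments scaled by transcript length and by library size, which allows levels of different genes to be compared per length but does not separate the transcripts of 1 gene.

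Each library held between 19.2 and 21.2 megareads mapped (M), estimated from the smallest step between FPKM values. Trim33 itself, the deleted gene, was at 10.4, 10.1 and 8.78 FPKM in WT MPPs and at 9.71, 11.7 and 4.80 FPKM in MPPs labelled KO, so the libraries KO 1 and KO 2 lay at the WT level. In CD115- CDPs it was at 14.3, 15.2 and 8.27 FPKM against 9.64, 8.28 and 4.03 FPKM, and in CLPs at 12.4, 7.01 and 8.86 FPKM against 7.52, 5.60 and 7.66 FPKM. The deletion takes out exons 2 to 4 and leaves the rest of the transcript, so a value over the whole gene is a weak check, and the groups are called KO-labelled here. Of the sort markers, Kit was highest in WT MPPs, at 71.6 to 74.8 FPKM, and Il7r in WT CLPs, at 32.6 to 63.0 FPKM. Csf1r, which encodes CD115, reached 39.1 to 137 FPKM in WT CD115- CDPs although the gate was set against the surface protein. The CD115- CDP libraries numbered 3 stood apart in both genotypes, with 9 neutrophil markers summing to 4510 and 4443 FPKM against 694 to 1063 FPKM in the other 4. In KO 3 of these, Mpo, Prtn3, Ctsg and Elane made up most of the sum, at 2117, 859, 503 and 265 FPKM. Ngp, Camp and Ltf were at 125, 57.9 and 33.6 FPKM there, near the 108, 53.8 and 27.9 FPKM of KO 1. S100a8 and S100a9 were higher in KO 3 than in KO 1. The MPP library KO 3 stood apart from the MPP libraries KO 1 and KO 2 in most of the family. Because whole sorted populations were sequenced, fewer cells of a type and less RNA per cell cannot be told apart.

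Promoter sequence is shown for the BH3-only genes whose windows held the same short motif, the core bound by FOXO factors, which are known activators of Bcl2l11 and Bbc3 when growth factor signals fall. The windows are the 250 bases before an annotated start, from RefSeq on the mouse genome GRCm38.p6, given 5′ to 3′ on the gene's strand, with the FOXO core in capitals. They lie at chr2:128125788-128126037 on the plus strand for Bcl2l11 and at chr7:16310011-16310260 on the plus strand for Bbc3, outside annotated exons.
Bcl2l11: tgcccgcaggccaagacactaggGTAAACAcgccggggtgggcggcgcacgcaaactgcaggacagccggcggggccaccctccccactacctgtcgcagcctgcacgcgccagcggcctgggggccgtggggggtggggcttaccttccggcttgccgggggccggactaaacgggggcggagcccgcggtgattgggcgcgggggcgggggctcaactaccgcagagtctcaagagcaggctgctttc
Bbc3: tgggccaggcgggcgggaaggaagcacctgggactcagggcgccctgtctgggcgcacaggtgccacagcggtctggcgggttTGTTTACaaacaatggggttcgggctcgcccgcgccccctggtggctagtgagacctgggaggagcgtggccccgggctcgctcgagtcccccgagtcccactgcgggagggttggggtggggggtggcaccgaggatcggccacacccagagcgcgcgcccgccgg
The core was searched on both strands as GTAAACA or its reverse complement TGTTTAC, and it begins 227 bases before the Bcl2l11 start and 167 bases before that Bbc3 start. It was found in 2 of the 16 windows of 9 members, and in 3.17% of all 32851 windows of that length. The core of PU.1, the product of Spi1, searched as GAGGAAGT, was in 1 window, that of Bak1, and in 2.44% of all windows, and the AP-1 site TGACTCA was in 0 member windows and in 4.46% of all. The E-box CACGTG was in windows of Bax and Bbc3 and in 6.02% of all, and the GC box GGGCGG was in 9 windows of 6 members and in 32.7% of all. Each match is a stretch of letters and was not measured as a bound site.

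Bcl2l11, on chromosome 2 from 128126038 to 128162547, was the member that rose in KO-labelled CLPs. Its level was 19.7, 16.5 and 12.5 FPKM in the WT CLP libraries and 36.1, 29.1 and 30.7 FPKM in the KO-labelled ones. Every KO-labelled CLP library was above every WT library, with means of 16.2 ± 3.60 and 31.9 ± 3.66 FPKM (SD, n = 3) and a ratio of means of 1.97. On the log2(FPKM + 1) scale the difference was 0.95 (SE 0.164, 95% interval 0.58 to 1.33), with an adjusted p of 0.00629 in limma. Leaving out each of the 6 libraries in turn gave differences of 0.79 to 1.10, with adjusted p of at most 0.0271.

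In MPPs Bcl2l11 was at 14.0, 22.2 and 9.06 FPKM in WT libraries and at 47.8, 76.8 and 12.1 FPKM in KO-labelled libraries. KO 1 and KO 2 were far above every WT library, whereas KO 3 lay among them, so the groups overlapped. The log2 difference was 1.27 (SE 0.659, 95% interval -0.30 to 2.85), with an adjusted p of 0.272 in limma. Without KO 3 the difference was 2.02 with an adjusted p of 0.00535 in limma. KO 3 was singled out from the values of these same members, so this p and those without KO 3 given below for other members are descriptions. Leaving out any other MPP library gave adjusted p of 0.380 to 0.589 for Bcl2l11. KO 1 and KO 2 are also the libraries in which Trim33 was at the WT level.

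In CD115- CDPs Bcl2l11 was at 59.5, 93.1 and 8.22 FPKM in WT libraries and at 87.0, 79.8 and 35.2 FPKM in KO-labelled libraries. The lowest value of each genotype was in the library numbered 3, and the groups overlapped throughout. The log2 difference was 0.76 (SE 0.872, 95% interval -1.33 to 2.85), with an adjusted p of 0.825 in limma. It turned to -0.25 without the library WT 3 and was 0.16 without both libraries numbered 3, so no direction can be given for Bcl2l11 in this population. The 95% interval spans falls and rises of more than 1 log2 unit, and the p does not show that the genotypes were alike.

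**Figure D1:**
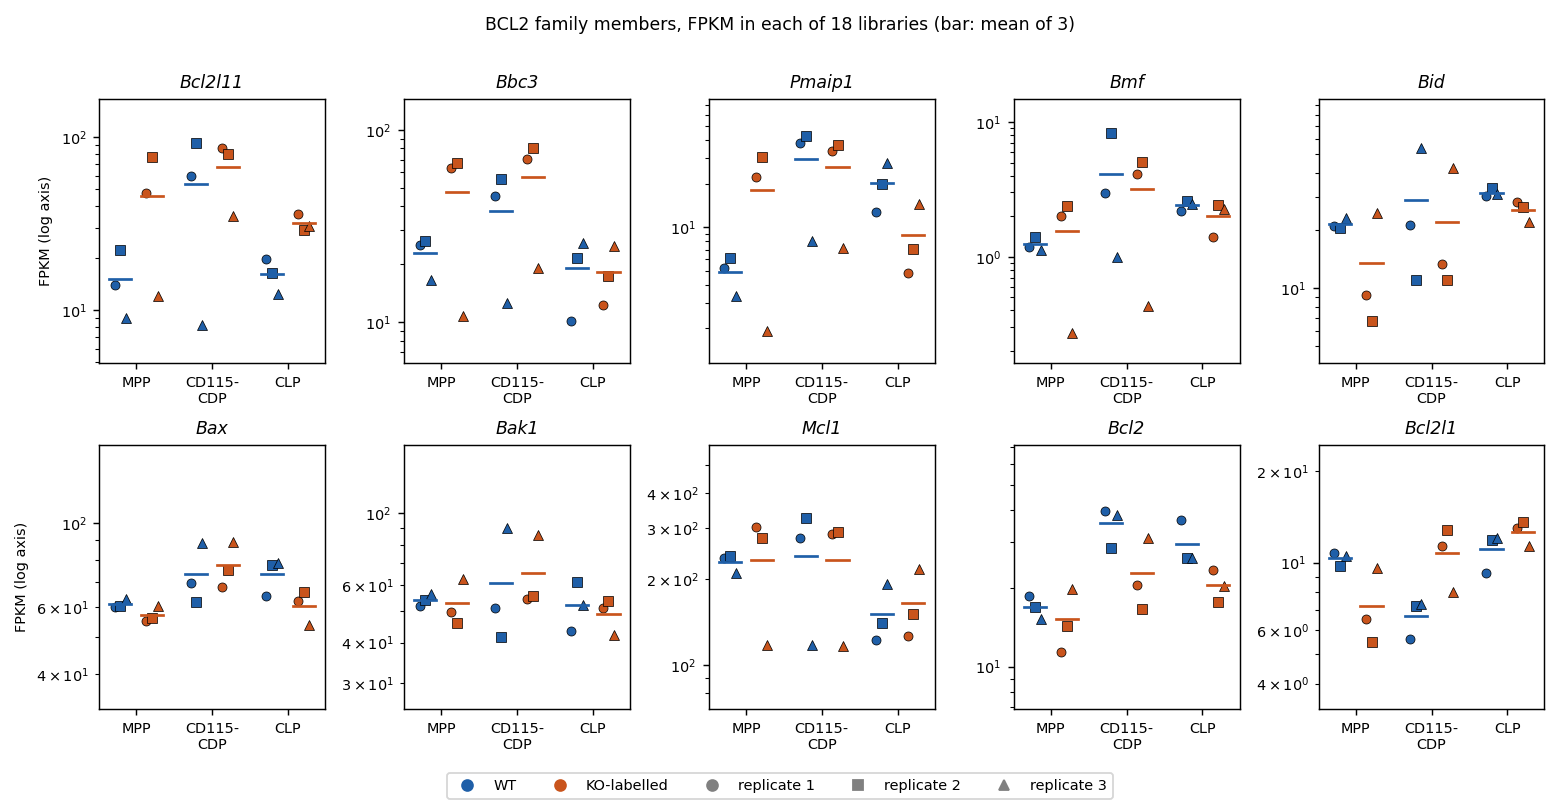
FPKM of the 10 members in each of the 18 libraries, on a log axis, with WT and KO-labelled libraries of MPPs, CD115- CDPs and CLPs side by side, a point for each library and a bar at the mean of 3. In CLPs the Bcl2l11 points of the KO-labelled libraries sit at 29.1 to 36.1 FPKM, above the WT points at 12.5 to 19.7 FPKM.

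Bbc3, which encodes PUMA, a BH3-only protein best known as a p53 target, did not follow Bcl2l11 in CLPs. There it was at 10.2, 21.6 and 25.9 FPKM in WT libraries and at 12.2, 17.4 and 24.9 FPKM in KO-labelled libraries, and its log2 difference was -0.03 (SE 0.342) with an adjusted p of 0.959 in limma. The ranges covered each other almost fully. In MPPs it was at 25.2, 26.4 and 16.6 FPKM against 63.5, 67.4 and 10.7 FPKM, the pattern of Bcl2l11 with KO 1 and KO 2 high and KO 3 low, for a log2 difference of 0.68 (SE 0.669, adjusted p 0.522) that became 1.51 without KO 3 (adjusted p 0.00193). In CD115- CDPs it was at 45.3, 55.5 and 12.6 FPKM against 70.5, 80.7 and 19.1 FPKM. Each KO-labelled CD115- CDP library exceeded the WT library of its own number, by 0.63, 0.53 and 0.56 on the log2 scale. The mean difference of 0.57 had an adjusted p of 0.847 in limma without regard to the numbers and of 0.0237 with the replicate number as a block.

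Pmaip1, which encodes NOXA, the BH3-only partner of MCL1, moved the other way from Bcl2l11 in CLPs. It was at 12.8, 19.8 and 27.9 FPKM in WT CLPs and at 4.86, 7.10 and 14.4 FPKM in KO-labelled CLPs. Each KO-labelled library was below the WT library of its number, by log2 differences of -1.24, -1.36 and -0.90, although the group ranges overlapped between 12.8 and 14.4 FPKM. The mean difference was -1.17 (SE 0.366, 95% interval -2.01 to -0.33), with an adjusted p of 0.0693 in limma, while blocking on the replicate number gave an adjusted p of 0.000440, which passed the threshold. In MPPs Pmaip1 was at 5.23, 6.12 and 3.33 FPKM against 22.2, 30.7 and 1.91 FPKM, again with KO 1 and KO 2 high and KO 3 low. The log2 difference in MPPs was 1.16 (SE 0.858, adjusted p 0.404), and 2.23 without KO 3 (adjusted p 0.00140). In CD115- CDPs it was at 38.2, 43.1 and 8.09 FPKM against 33.6, 37.4 and 7.24 FPKM, a log2 difference of -0.17 with an adjusted p of 0.972, and both libraries numbered 3 were low.

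Bid, whose product is cut by caspase 8 and so carries death receptor signals to mitochondria, was low where the other BH3-only genes were high in MPPs KO 1 and KO 2, and high where they were low in the CD115- CDP libraries numbered 3. In MPPs it was at 21.1, 20.6 and 23.1 FPKM in WT and at 9.20, 6.74 and 24.5 FPKM in KO-labelled libraries, low in KO 1 and KO 2 and at the WT level in KO 3. Its log2 difference in MPPs was -0.84 (SE 0.414, adjusted p 0.256), and -1.35 without KO 3 (adjusted p 0.00119). In CD115- CDPs Bid was at 21.4, 11.04 and 54.2 FPKM against 13.4, 10.95 and 42.2 FPKM, here with the libraries numbered 3 highest, for a log2 difference of -0.33 and an adjusted p of 0.914. In CLPs the values were 30.3, 33.1 and 30.9 FPKM against 28.2, 26.4 and 22.0 FPKM. The KO-labelled CLP libraries were all below the WT libraries, but the log2 difference of -0.30 (SE 0.114) did not pass, with an adjusted p of 0.126 in limma.

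Bmf, a BH3-only gene whose product is tied to the cytoskeleton in resting cells, was the lowest member in every group, at 0.27 to 8.27 FPKM over the 18 libraries. It was at 1.19, 1.40 and 1.13 FPKM against 2.0, 2.4 and 0.27 FPKM in MPPs, at 2.99, 8.27 and 1.0 FPKM against 4.11, 5.05 and 0.43 FPKM in CD115- CDPs, and at 2.17, 2.61 and 2.47 FPKM against 1.40, 2.42 and 2.25 FPKM in CLPs. KO 3 was the lowest KO-labelled library in MPPs, where leaving it out moved the log2 difference to 0.51 (adjusted p 0.0104), and in CD115- CDPs. The log2 differences were 0.07, -0.25 and -0.19 in the same order of populations, with adjusted p of 0.909, 0.947 and 0.468 in limma.

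The pore formers Bax and Bak1 were the steadiest members in MPPs and among the highest everywhere. Bax was at 59.98, 60.3 and 63.2 FPKM in WT MPPs and at 55.2, 56.3 and 60.4 FPKM in KO-labelled MPPs, for a log2 difference of -0.09 (SE 0.0803, 95% interval -0.28 to 0.10). In CD115- CDPs Bax was at 69.3, 61.8 and 88.6 FPKM against 67.7, 75.04 and 89.3 FPKM, and in CLPs at 64.1, 77.7 and 78.3 FPKM against 62.2, 65.8 and 53.8 FPKM. The log2 differences of Bax there were 0.08 and -0.27, with adjusted p of 0.919 and 0.174 in limma, and the groups overlapped in all 3 populations. Bak1 was at 52.0, 54.0 and 56.5 FPKM against 49.7, 45.9 and 62.7 FPKM in MPPs, at 51.2, 41.6 and 90.0 FPKM against 54.3, 55.7 and 85.8 FPKM in CD115- CDPs, and at 43.4, 61.5 and 52.2 FPKM against 50.9, 53.7 and 42.2 FPKM in CLPs. Its log2 differences were -0.05, 0.14 and -0.09, with adjusted p of 0.821, 0.924 and 0.742. In CD115- CDPs both pore formers were highest in the libraries numbered 3, where Bcl2l11 was lowest.

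Bcl2, the founding anti-apoptotic member, was lower on average in KO-labelled libraries of each population, and in CD115- CDPs and CLPs it passed the test with the replicate number as a block but not without it. In CLPs it was at 36.7, 26.2 and 26.1 FPKM in WT and at 23.5, 17.7 and 20.3 FPKM in KO-labelled libraries. Every KO-labelled CLP library was below every WT library, with means of 29.7 ± 6.07 and 20.5 ± 2.89 FPKM (SD, n = 3). The log2 difference was -0.50 (SE 0.159), with an adjusted p of 0.0718 in limma and of 0.0115 with the block. In CD115- CDPs Bcl2 was at 39.6, 28.6 and 38.3 FPKM against 20.6, 16.7 and 31.1 FPKM, and each KO-labelled library was below the WT library of its number. The log2 difference there was -0.65 (SE 0.259, 95% interval -1.27 to -0.03), with an adjusted p of 0.465 in limma and of 0.0425 with the block. In MPPs it was at 18.7, 16.9 and 15.2 FPKM against 11.4, 14.3 and 19.9 FPKM, a log2 difference of -0.18 (adjusted p 0.574) in which KO 3 was the highest library, and -0.38 without KO 3 (adjusted p 0.0444).

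Bcl2l1, which encodes BCL-XL, an anti-apoptotic protein known above all from erythroid cells and platelets, went in opposite directions in MPPs and CD115- CDPs. In MPPs it was at 10.8, 9.74 and 10.5 FPKM in WT and at 6.52, 5.48 and 9.57 FPKM in KO-labelled libraries, each KO-labelled library below every WT library. The log2 difference was -0.50 (SE 0.194), with an adjusted p of 0.184 in limma, and -0.70 without KO 3 (adjusted p 0.00257). In CD115- CDPs it was at 5.61, 7.18 and 7.30 FPKM against 11.3, 12.8 and 8.02 FPKM, each KO-labelled library above every WT library, for a log2 difference of 0.59 (SE 0.220) with an adjusted p of 0.437, and of 0.0798 with the block. In CLPs the values were 9.25, 11.9 and 12.1 FPKM against 13.0, 13.6 and 11.4 FPKM, a log2 difference of 0.18 with an adjusted p of 0.403. Erythroid markers also differed in MPPs. Of 10 erythroid genes, 9 passed the test as lower, whereas Bcl2l1 did not pass, and their summed level was 364 to 393 FPKM in WT and 32.5 to 58.5 FPKM in KO-labelled MPPs. Hbb-bs was at 0 in 2 of the 6 MPP libraries, KO 1 and KO 2, and Hba-a2 and Ahsp each in 1, KO 1. Hbb-bt, which did not pass, made up most of the sum in KO-labelled MPPs, at 31.4, 46.4 and 49.1 FPKM. In CLPs, where Bcl2l1 did not pass either, the erythroid sum was 34.8 to 57.0 FPKM against 5.88 to 10.1 FPKM. In CD115- CDPs, where Bcl2l1 was higher in KO-labelled libraries, the erythroid sums overlapped, at 7.19 to 37.1 FPKM against 7.22 to 23.6 FPKM. The part of erythroid cells in the Bcl2l1 values was not tested.

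Mcl1, a short-lived anti-apoptotic protein, was the highest member in every group. It was at 236, 240.4 and 209.8 FPKM in WT MPPs and at 304, 279 and 117 FPKM in KO-labelled MPPs, so that KO 1 and KO 2 were above and KO 3 below the WT libraries. In CD115- CDPs it was at 277, 327 and 118 FPKM against 288, 291 and 117 FPKM, with both libraries numbered 3 low. In CLPs it was at 122, 140.2 and 192 FPKM against 127, 151 and 216 FPKM. The log2 differences were -0.09, -0.04 and 0.11, with adjusted p of 0.884, 0.992 and 0.788 in limma, and the groups overlapped in all 3 populations. Without KO 3 the difference in MPPs was 0.35 (adjusted p 0.0159), so the sign there rests on that library.

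**Figure D2:**
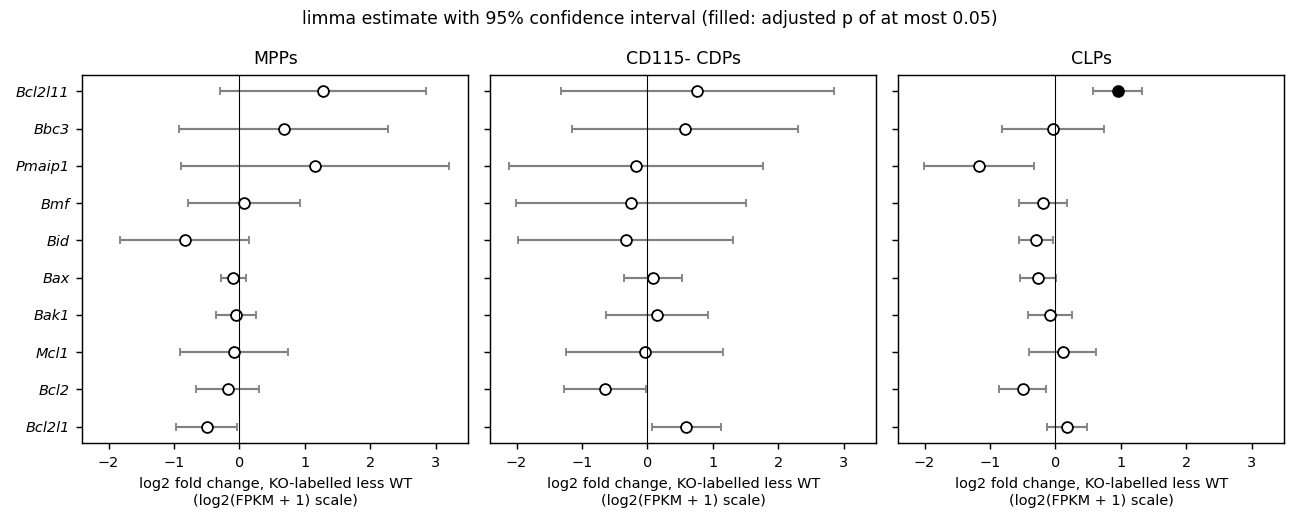
Log2 difference of KO-labelled from WT libraries, on the log2(FPKM + 1) scale, for the 10 members in MPPs, CD115- CDPs and CLPs, with 95% intervals from limma as bars. Bcl2l11 in CLPs, at 0.95 with an interval of 0.58 to 1.33, is the member whose adjusted p passed 0.05.

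A gene was called where its adjusted p was at most 0.05 and its log2 difference at least 1 in either direction, and in limma 0 of the 10 members were called in any of the 3 populations. At an unadjusted p under 0.05 the count was 1 in MPPs (Bcl2l1), 2 in CD115- CDPs (Bcl2 and Bcl2l1) and 4 in CLPs (Bcl2l11, Bcl2, Pmaip1 and Bid). In the background, 1.48% of the genes tested were called in MPPs, 0.106% of those in CD115- CDPs and 3.52% of those in CLPs. By adjusted p alone 0 members passed in MPPs against 3.84% of genes, 0 in CD115- CDPs against 0.106%, and 1 of 10, Bcl2l11, in CLPs against 14.3%. With the replicate number as a block, 0 members were called in CD115- CDPs against 1.83% of genes and 1, Pmaip1, in CLPs against 3.86%. By adjusted p alone with the block, 2 members passed in CD115- CDPs, Bbc3 as higher and Bcl2 as lower, against 9.34% of genes. In CLPs 3 passed, Bcl2l11 as higher and Bcl2 and Pmaip1 as lower, against 20.9%. Without KO 3, 4 members were called in MPPs, Bcl2l11, Bbc3 and Pmaip1 as higher and Bid as lower, against 7.40% of genes. KO 3 was singled out from the values of these members, so that count is a description. Groups did not overlap for 1 member in MPPs, where 30.3% of genes did not, for 1 in CD115- CDPs, where 18.2% did not, and for 3 in CLPs, where 33.9% did not. The median log2 difference of the members was -0.07, 0.02 and -0.14 for MPPs, CD115- CDPs and CLPs, beside -0.11, -0.07 and 0.01 over all genes tested.

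Whether the genotype difference itself varied between populations was tested by an interaction over all 18 libraries, which 2.45% of genes and 0 of the 10 members passed in limma, with 1, Bcl2l1, at an unadjusted p under 0.05. For Bcl2l11 the adjusted p was 0.940, with the difference in CLPs less that in MPPs at -0.32 (SE 1.03), so the rise in CLPs was not shown to be particular to them. For Bcl2l1 the adjusted p was 0.0916, with the difference in CD115- CDPs exceeding that in MPPs by 1.09 (SE 0.267). Blocked on the replicate number of each population, which MPPs bore out as pairs only in part, it was 0.0475. Bcl2l1 was then the 1 member that passed, against 8.67% of genes. For Pmaip1 it was 0.498, with the difference in CLPs less that in MPPs at -2.33 (SE 1.17).

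Among WT libraries the members kept much of one order, with Mcl1 highest, Bax next and Bmf lowest in every population, while the place of Bcl2l11 shifted. By mean FPKM it was the 7th member in MPPs, the 4th in CD115- CDPs and the 8th in CLPs, and in KO-labelled libraries the 5th, 3rd and 4th. The WT means of Bcl2l11 were 15.1 ± 6.66 FPKM in MPPs, 53.6 ± 42.7 FPKM in CD115- CDPs and 16.2 ± 3.60 FPKM in CLPs (SD, n = 3), and none of the 3 pairs of populations differed beyond that spread. In limma on the 9 WT libraries its log2 difference was 1.30 for CD115- CDPs over MPPs (SE 0.744, adjusted p 0.236) and -1.14 for CLPs over CD115- CDPs (SE 0.744, adjusted p 0.327). Pmaip1 was called higher in CLPs than in MPPs, by 1.81 (SE 0.560, adjusted p 0.0440), and higher in CD115- CDPs than in MPPs, by 2.12 (SE 0.560, adjusted p 0.0276). The call in CLPs over MPPs was lost on leaving out any WT library of these populations. That in CD115- CDPs over MPPs was lost on leaving out any of theirs except CD115- CDP WT 3. Bcl2 was called higher in CD115- CDPs than in MPPs, by 1.01 (SE 0.175, adjusted p 0.00391), and by adjusted p alone in CLPs over MPPs, by 0.76 (SE 0.175, adjusted p 0.0135). Bcl2l1 passed by adjusted p alone as lower in CD115- CDPs than in MPPs, at -0.57 (SE 0.145, adjusted p 0.0243), and as higher in CLPs than in CD115- CDPs, at 0.65 (SE 0.145, adjusted p 0.0275). Bcl2 and Bcl2l1, both anti-apoptotic, thus differed in opposite directions between WT MPPs and CD115- CDPs.

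Of the 10 members, 1 was called for WT CLPs against MPPs, where 8.70% of genes were called and 25.0% passed by adjusted p alone. For WT CD115- CDPs against MPPs 2 were called, against 6.98% of genes and 21.9% by adjusted p alone, and for WT CLPs against CD115- CDPs 0 in limma (1, Bcl2l1, at an unadjusted p under 0.05), against 3.0% and 10.9%. These contrasts leaned on the CD115- CDP library WT 3. Without it 4 members, Bcl2l11, Bbc3, Pmaip1 and Bmf, were called higher in CD115- CDPs than in MPPs, against 13.4% of genes, and Bcl2 was no longer called. For CLPs against CD115- CDPs 4, Bcl2l11, Mcl1, Bbc3 and Pmaip1, were then called lower in CLPs, against 8.22%. Each population came in a table of its own, so population and table cannot be told apart in these contrasts.

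The balance between Bcl2l11 and its partners was described by the log2 ratio of their FPKM within a library, which no scaling of the library can alter. In CLPs the ratio of Bcl2l11 to Bcl2 was between -1.06 and -0.67 in WT libraries and between 0.59 and 0.71 in KO-labelled libraries. Bcl2l11 thus lay below Bcl2 in all 3 WT CLP libraries and above it in all 3 KO-labelled ones. Its ratio to Bcl2l1 rose from 0.05 to 1.09 in WT to 1.10 to 1.47 in KO-labelled CLPs, a gap of almost nothing between the groups. Its ratio to Mcl1 was -3.94 to -2.63 against -2.82 to -1.81, which overlapped, and its ratio to the sum of Bcl2, Bcl2l1 and Mcl1 was -4.20 to -3.09 against -3.01 to -2.18, which did not. As a share of the summed FPKM of all 10 members, Bcl2l11 made up 2.72% to 5.62% in WT CLPs and 7.0% to 10.05% in KO-labelled CLPs.

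In MPPs the ratio of Bcl2l11 to Mcl1 was -4.53 to -3.43 in WT and -3.28 to -1.86 in KO-labelled libraries, without overlap, so that even KO 3, low in both genes, was above the WT libraries. The ratio to Bcl2 was -0.75 to 0.39 against -0.72 to 2.42 and that to Bcl2l1 was -0.21 to 1.19 against 0.34 to 3.81, both with overlap. In CD115- CDPs the ratio to Mcl1 was -3.84 to -1.81 against -1.87 to -1.73 and that to Bcl2 was -2.22 to 1.70 against 0.18 to 2.26. The ratio to Bcl2 was higher in the KO-labelled library of each of the 3 numbered pairs of CD115- CDPs, while the groups overlapped. The ratios carry no test, since the members were chosen.

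**Figure D3:**
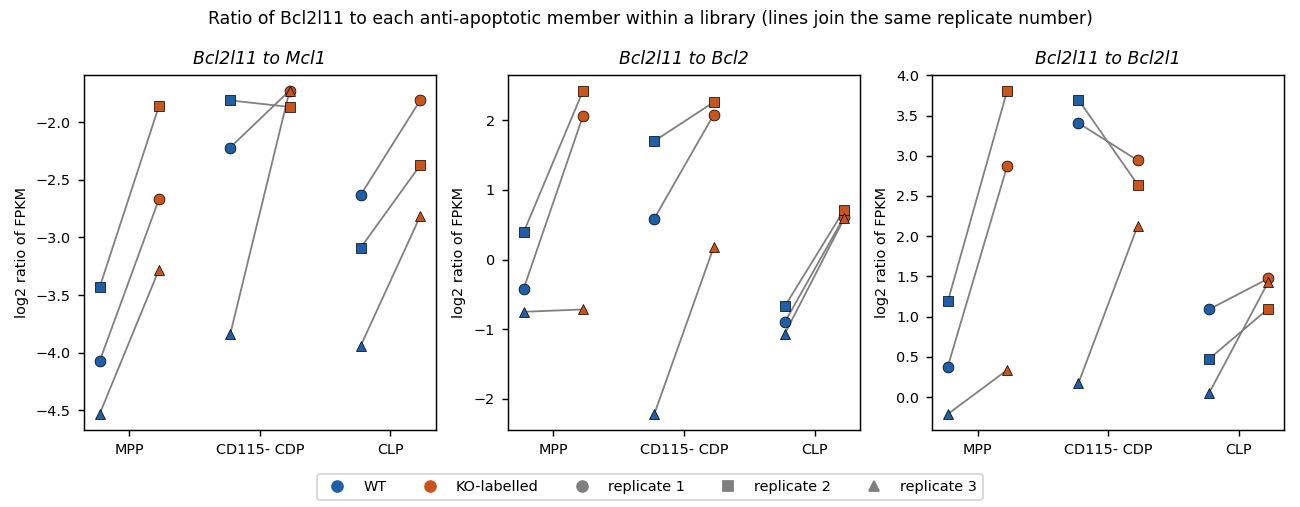
Log2 ratio of Bcl2l11 to each anti-apoptotic member within a library, for WT and KO-labelled libraries of the 3 populations, with a point for each library and lines between libraries of the same number. In CLPs the ratio to Bcl2 is below 0 in the WT libraries, at -1.06 to -0.67, and above 0 in the KO-labelled ones, at 0.59 to 0.71.

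Over the 18 libraries the members fell into those that were high with Bcl2l11 and those that were not. Within each genotype of CLPs the first set did not follow Bcl2l11. Pearson correlations of log2(FPKM + 1) with Bcl2l11, given as a description over 18 libraries that share populations and genotypes, were 0.79 for Bbc3, 0.70 for Pmaip1, 0.68 for Bmf and 0.63 for Mcl1. They were -0.15 for Bcl2, -0.22 for Bax, -0.28 for Bcl2l1, -0.42 for Bak1 and -0.73 for Bid. Among all genes Bbc3 was at rank 504, Pmaip1 at 1007, Bmf at 1114 and Mcl1 at 1314, so many genes outside the family followed Bcl2l11 more closely. Among MPPs, Bcl2l11, Bbc3, Pmaip1 and Bmf were highest in the libraries KO 1 and KO 2, and in CD115- CDPs all 4 were at their lowest of either genotype in the library numbered 3. In CLPs the library numbered 1 of either genotype was highest in Bcl2l11 and lowest in Bbc3, Pmaip1, Bmf and Mcl1. Bcl2l11 was at 19.7, 16.5 and 12.5 FPKM in WT CLPs, where Bbc3 was at 10.2, 21.6 and 25.9 FPKM. Pmaip1 was at 12.8, 19.8 and 27.9 FPKM in the same libraries. The 5 genes of the whole table most like Bcl2l11 were Etf1 at 0.958, Fam84b at 0.949, Usp36 at 0.936, Nckap5l at 0.935 and Smndc1 at 0.920. In CLPs, Fam84b rose by 0.70 (adjusted p 0.0110) and Etf1, a translation termination factor, by 0.45 (adjusted p 0.0419), while the other 3 had adjusted p of 0.292, 0.0564 and 0.460 in limma. With the block the adjusted p of Nckap5l in CLPs was 0.0205.

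**Figure D4:**
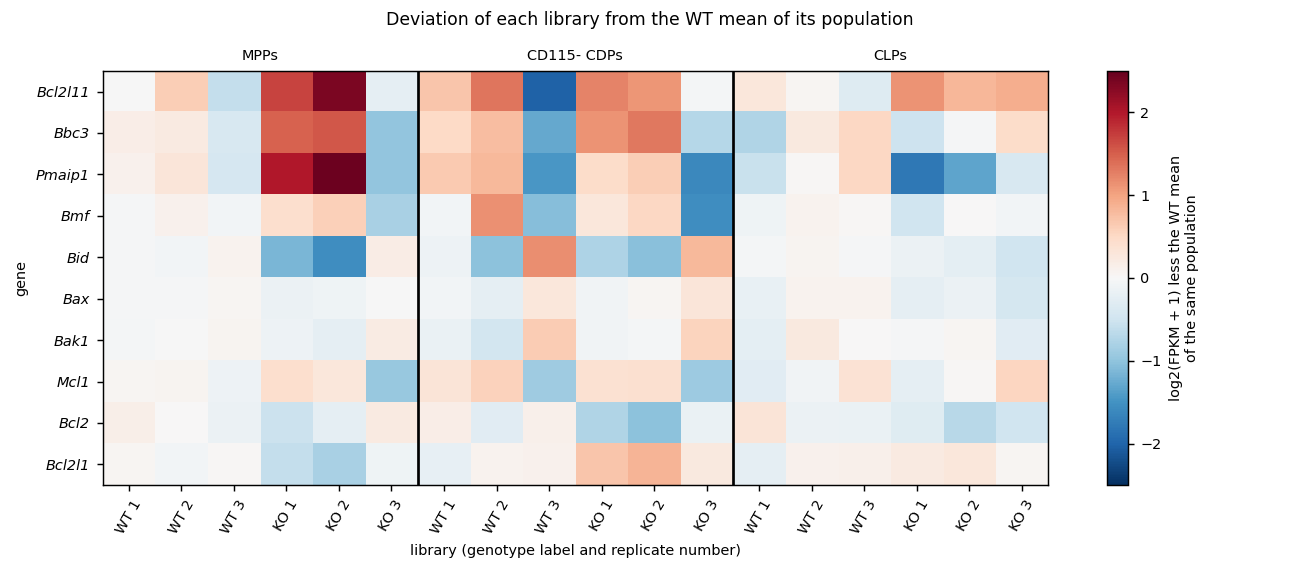
Deviation of each member's log2(FPKM + 1) from its WT mean in the same population, for each of the 18 libraries. Bcl2l11, Bbc3 and Pmaip1 are high and Bid is low in the MPP libraries KO 1 and KO 2, and in CD115- CDPs the libraries numbered 3 of both genotypes are low in Bbc3 and Pmaip1 and high in Bid.

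Ddit3, which encodes CHOP, a transcription factor of the unfolded protein and integrated stress responses and a known activator of Bcl2l11, separated the libraries in the same way. It was at 40.3, 41.8 and 28.3 FPKM in WT MPPs and at 155, 171 and 14.3 FPKM in KO-labelled MPPs. In CD115- CDPs it was at 117, 140.04 and 12.1 FPKM against 149, 217 and 17.98 FPKM. The 6 libraries with Ddit3 at 117 FPKM or more were the 6 with Bcl2l11 at 47.8 FPKM or more, and the other 12 had at most 41.8 FPKM of Ddit3 and at most 36.1 FPKM of Bcl2l11. In CLPs Ddit3 was at 19.2, 33.6 and 41.7 FPKM against 21.0, 24.6 and 35.9 FPKM, overlapping between genotypes where Bcl2l11 did not. The correlation with Bcl2l11 over the 18 libraries was 0.81 for Ddit3, 0.87 for the cell cycle inhibitor gene Cdkn1a, 0.70 for Foxo1 and 0.19 for Spi1, again as a description. In the same order these genes ranked 420, 119, 998 and 3234 among all genes. Their part in the Bcl2l11 values was not tested.

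**Figure D5:**
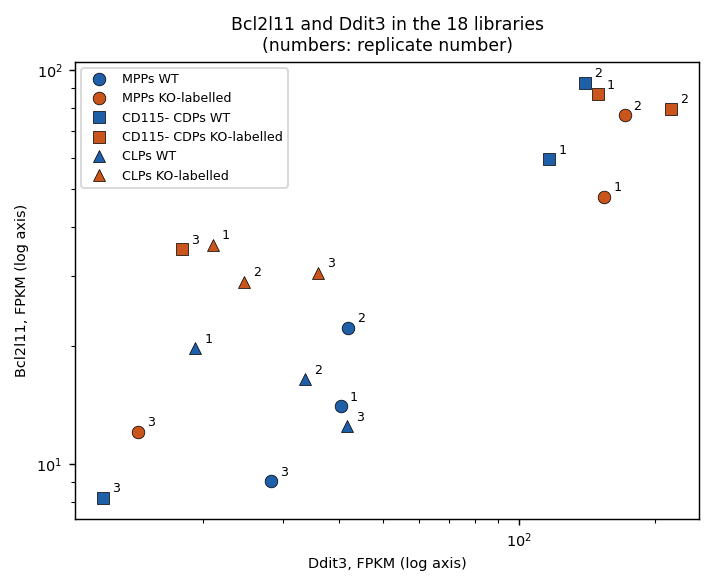
Bcl2l11 against Ddit3 in the 18 libraries, both in FPKM on log axes, with colours for genotypes, symbols for populations and the replicate number beside each point. The KO-labelled CLPs lie at 29.1 to 36.1 FPKM of Bcl2l11 with Ddit3 at 21.0 to 35.9 FPKM, while the 6 libraries with Bcl2l11 at 47.8 FPKM or more have Ddit3 at 117 FPKM or more.

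The rest of the apoptosis machinery was described from lists of its genes, by adjusted p alone. Among 14 other BCL2 homologues, 8 passed the filter in MPPs, 8 in CD115- CDPs and 6 for CLPs, and 0 of these passed the test in any population, with 3, 1 and 0 at an unadjusted p under 0.05 in the same order. Bok, a pore former related to Bax, had a log2 difference of 1.25 in CD115- CDPs with an adjusted p of 0.261 in limma, and was the 1 homologue that passed there with the block. Of 19 caspases, apoptosome genes and inhibitors of apoptosis, 1 fell in MPPs, Naip2 at -0.53 (adjusted p 0.0498), 0 passed in CD115- CDPs (2 at an unadjusted p under 0.05), and 1 rose and 3 fell in CLPs. With the block, 5 of the 19 passed in CD115- CDPs, Htra2 and Endog as higher and Casp6, Xiap and Apaf1 as lower. The gene that rose in CLPs was Casp8, the initiator caspase of death receptors that cuts BID, at 0.35 (SE 0.0961, adjusted p 0.0433). Those that fell were Birc5, or survivin, a gene of dividing cells, at -0.83 (SE 0.153, adjusted p 0.00884), the effector caspase Casp6 at -0.61 (SE 0.124, adjusted p 0.0135) and the inhibitor of apoptosis Naip2 at -0.58 (SE 0.158, adjusted p 0.0446). Of 7 mitochondrial outer membrane partners, 0 passed in MPPs and CD115- CDPs (1 and 2 at an unadjusted p under 0.05), and 1 fell in CLPs, Tmbim6, or BAX inhibitor 1, at -0.42 (SE 0.109, adjusted p 0.0371). Vdac1 passed as higher in CD115- CDPs with the block.

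Death receptors and their adaptors gave 0 of 9 genes in MPPs and in CD115- CDPs (4 and 0 at an unadjusted p under 0.05) and 1 of 8 in CLPs, where Tnfsf10, the gene of the ligand TRAIL, rose by 0.56 (SE 0.140, adjusted p 0.0324). With the block, 1 gene passed in CD115- CDPs, Tnfrsf1a as lower. Of 14 known regulators of BH3-only genes, 1 fell in MPPs, Dusp6, a phosphatase that switches off ERK, at -0.46 (SE 0.0734, adjusted p 0.0260), 0 passed in CD115- CDPs (Dusp6 and Myc at an unadjusted p under 0.05), and 1 rose in CLPs, Myc, at 0.74 (SE 0.0998, adjusted p 0.00183). With the block 3 of the 14 passed in CD115- CDPs, Dusp6, Myc and Ddit3 as higher, and 3 in CLPs, Myc and Dusp6 as higher and Mapk3 as lower. ERK is known to mark BIM for breakdown, a step that RNA levels do not show. The median log2 differences of these lists in CLPs were -0.07 for the homologues, -0.04 for the caspases and their partners, 0.09 for the mitochondrial partners, 0.05 for death receptors and 0.02 for the regulators, beside 0.01 over all genes tested.

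Markers of other cells moved between the genotypes as well. In CLPs T and NK cell markers summed to 22.6 to 38.1 FPKM in WT and 67.9 to 82.4 FPKM in KO-labelled libraries, without overlap. Of the 2 of these 6 markers that were tested there, Nkg7 rose by 1.39 and Cd8a was lower at -1.18, so the sum does not speak for the whole list. Cd3e was at 0 in 3 of the 6 CLP libraries and Cd3g in 2. Neutrophil markers summed to 424 to 993 FPKM in WT and 241 to 414 FPKM in KO-labelled CLPs, also without overlap though by a narrow gap. Of 9 tested 0 passed in limma, 7 at an unadjusted p under 0.05 and 7 as lower with the block. Mpo, among those at an unadjusted p under 0.05, went the other way, at 117, 131 and 124 FPKM against 146, 157 and 139 FPKM. It was the 1 marker of this list whose groups did not overlap. B cell markers overlapped in CLPs, at 270 to 778 FPKM in WT and 223 to 513 FPKM in KO-labelled libraries. Of the 7 tested there 1 passed in limma, Ebf1 as higher and without overlap, and with the block 1 passed as higher and 2 as lower. In CD115- CDPs T and NK cell markers summed to 28.6 to 39.9 FPKM in WT and 69.7 to 73.4 FPKM in KO-labelled libraries. Of the 3 tested there 0 passed in limma, 2 at an unadjusted p under 0.05 and 2 with the block, Nkg7 as higher and Cd3g as lower. Nkg7 alone was at 25.2, 33.1 and 27.9 FPKM against 72.7, 69.1 and 72.0 FPKM and made up most of that sum. Cd3e, Cd3g, Cd3d and Cd8a were lower on average in the KO-labelled CD115- CDPs. The T and NK sum overlapped in MPPs, at 82.4 to 93.6 FPKM against 62.7 to 88.4 FPKM. In MPPs neutrophil markers summed to 3481 to 3606 FPKM in WT and 1565 to 2584 FPKM in KO-labelled libraries, with 3 of 9 passing as lower, and B cell markers to 49.1 to 55.4 FPKM and 15.9 to 30.8 FPKM, with 1 of 7 lower. Immediate early genes, which respond to cell handling, summed to 8664 to 9397 FPKM in WT and 2637 to 3627 FPKM in KO-labelled MPPs, with 6 of 8 passing as lower. Atf3, 1 of the 8, did not follow the sum. It was at 260, 247 and 195 FPKM in WT MPPs and at 455, 403 and 80.4 FPKM in KO-labelled MPPs, high in KO 1 and KO 2 and low in KO 3. The part of these cells and of handling in the member values was not tested.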

How the data were processed

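Per the study's methods, libraries were sequenced on a BGISEQ-500 as single-end reads of 50 bases. The submitters' processing notes name HISAT2 2.0.4, Bowtie2 2.2.5, RSEM 1.2.12 and the build mm10. The authors deposited FPKM per gene, rounded to 2 decimals, in 1 table for each population. No raw counts were used here, so count models were not run.

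Values were tested as log2(FPKM + 1) in limma 3.58.1 (R 4.3.3; lmFit, and eBayes with a trend) keeping genes whose mean reached 0.5 FPKM, 3 WT against 3 KO within a population, with Benjamini-Hochberg adjustment over all genes tested. A fold change on this scale understates that of low genes. The scripts were tested on simulated data. Positions and promoter windows came from RefSeq on GRCm38.p6, the patch release of mm10, and Pmaip1 was left out of the promoter search. Tables and plots used Python 3.11.15.

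Members and lists were chosen with earlier results of these data known. Named genes were all 10 members, Trim33, up to 4 genes of each list with the largest log2 difference among those past an adjusted p of 0.05, and the 5 genes most correlated with Bcl2l11. Ddit3, Cdkn1a, Foxo1, Spi1, Bok and the genes given as passing with the block were named after their values were seen. Some list genes that the rule would name are not reported here. Libraries of the same number deviated together in CD115- CDPs (correlations of 0.437, 0.671 and 0.790 across genes) and in CLPs (0.400, 0.329 and 0.131), so blocked values stand beside the calls of members and apoptosis genes that they change. In MPPs libraries 2 and 3 also went with their own numbers, at 0.482 and 0.472. MPP WT 1 went more with KO 2 (0.125) than with KO 1 (0.0382), and the numbers were not taken as pairs there. MPPs and CLPs thus both met the check only in part, and blocked values were used for CLPs alone of these. The pairing is not settled in the other populations either. CLP WT 3 went more with KO 2 (0.234) than with KO 3 (0.131). CD115- CDP WT 2 went with KO 1 (0.663) about as much as with KO 2 (0.671). The sources used here did not say whether the numbers mark pairs, so blocked values rest on an assumed pairing.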

Additional observations from a re-analysis of the deposited data

Results flagged for a closer look

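Bcl2l1 moved one way in one population and the other way in another. All 3 KO-labelled CD115- CDP libraries were above all 3 WT libraries, and all 3 KO-labelled MPP libraries were below all 3 WT libraries. The log2 difference in CD115- CDPs exceeded that in MPPs by 1.09, and the interaction of population and genotype had an adjusted p of 0.0916 in limma, so it did not pass the threshold over all genes. Blocked on the replicate number, which in MPPs was not taken to pair the libraries, the adjusted p was 0.0475, which passed.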

How the results depend on the processing

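Over 37 results and 527 values under alternatives, 443 kept their direction and their side of the threshold, 21 crossed it upward, 0 crossed it downward, 34 turned and 29 counts moved by over 1.5 times. Among the members' genotype differences only Bcl2l11 in CLPs had passed, so it alone could cross downward. Calls that were lost are among the counts that moved. Bcl2l11 in CLPs ranged from 0.94 to 0.99 under the other settings. The cause was not tested for any value that turned.

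In MPPs Bmf turned to -0.10 with a pseudocount of 0.1. With median-ratio scaling Mcl1 was 0.035, Bax 0.026 and Bak1 0.070 in MPPs and Mcl1 0.0055 in CD115- CDPs, and after rescaling to TPM Bax was -0.039 in CD115- CDPs. Without both libraries numbered 3, an alternative chosen after seeing the data, MPPs gave 4 called members, beside 793 of 12340 genes called, Bcl2l11 at 1.72 (adjusted p 0.0101 in limma) and Mcl1 at 0.29. In CLPs 1 member was called with a mean of at least 5 FPKM (Pmaip1), and 1 with no minimum fold (Bcl2l11). With no minimum fold, WT CLPs against MPPs gave 2 and WT CLPs against CD115- CDPs 1, and with no filter or with median-ratio scaling WT CLPs against MPPs gave 0.

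With the replicate number as a block, 1 member (Pmaip1) was called in CLPs, 0 in MPPs, 1 (Bcl2l1) passed the interaction and 0 were called for WT CLPs against MPPs. The WT contrasts did not pass the pairing check, and MPPs and CLPs met it only in part.

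Leaving out each library in turn, called members ranged from 0 to 4 in MPPs (4 without KO 3), 0 to 2 in CLPs (2 without WT 1), 0 to 1 for the interaction, 0 to 1 for WT CLPs against MPPs and 0 to 4 for both WT contrasts with CD115- CDPs (4 without WT 3). Bcl2l11 ranged from 0.73 to 2.02 in MPPs and from -0.25 to 1.43 in CD115- CDPs. In CD115- CDPs the ranges were -0.089 to 0.46 for Bak1, -0.028 to 0.23 for Bax, -0.062 to 1.22 for Bbc3, -0.91 to 0.25 for Bid, -0.78 to 0.41 for Bmf, -0.49 to 0.39 for Mcl1 and -0.90 to 0.54 for Pmaip1. In CLPs they were -0.21 to 0.033 for Bak1, -0.41 to 0.22 for Bbc3 and -0.10 to 0.29 for Mcl1, and in MPPs -0.18 to 0.044 for Bak1, -0.20 to 0.51 for Bmf and -0.33 to 0.35 for Mcl1. The files hold FPKM and no counts, so no counting interval was given.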

Other observations

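Receptors that carry survival signals in progenitors moved in several places. Of 12 genes of cytokine receptors, JAK kinases and STAT5, 3 fell in KO-labelled MPPs, among them Csf1r at -1.59 (adjusted p 0.00253) and Kit at -0.94 (adjusted p 0.0434). Over all genes 3.84% passed in MPPs. In CLPs 2 of the 11 tested rose and 5 fell, against 14.3% of genes. Csf1r fell by 1.65 (adjusted p 0.00179) and Csf2rb, the shared chain of the GM-CSF, IL-3 and IL-5 receptors, by 1.63 (adjusted p 6.79e-05). Jak2 fell by 0.67 (adjusted p 0.0261), while Jak3 rose by 0.65 (adjusted p 0.00775). Il7r, the receptor gene through which CLPs receive IL-7, had a log2 difference of -0.05 in CLPs with an adjusted p of 0.909. In CD115- CDPs 0 of 12 passed in limma, with 4 at an unadjusted p under 0.05, and with the replicate number as a block 5 passed as lower, Csf1r, Csf2ra, Csf2rb, Il7r and Jak2.

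Population markers changed within the sorted gates. In KO-labelled CLPs 4 of 9 passed as higher and 2 as lower, among them Siglech at -4.11, Rag1 at 1.67 and Dntt at 0.99, and in MPPs 4 passed as lower. In CD115- CDPs 0 of 9 passed in limma, 2 at an unadjusted p under 0.05, and 4 with the block, Dntt as higher and Csf1r, Siglech and Il7r as lower. Whether these go with a different mix of cells or a different level per cell cannot be told apart.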
